A study of Mus musculus with 16 samples.

Results

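The genes described here are those of prostaglandin synthesis and reception in mouse brown adipocytes. They were chosen by name as the rows of the count table with the symbols *Ptgs1*, *Ptgs2*, *Ptges*, *Ptgis*, *Ptgds*, *Ptger1*, *Ptger2*, *Ptger3*, *Ptger4* and *Hpgd*. All 10 were present among the 54347 genes listed, and 5 of them (*Ptgs1*, *Ptgs2*, *Ptges*, *Ptgis* and *Ptger1*) were among the 13150 genes with enough counts to be tested. The remaining 5 are given by their counts.

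The libraries came from a gain-of-function experiment on the long non-coding RNA *Gm15551*. wt1-SAM is a single line of immortalised brown preadipocytes with the CRISPRa SAM machinery, a dead Cas9 with activator proteins that increases transcription where a single guide RNA (sgRNA) directs it. All 16 cultures were differentiated with rosiglitazone, T3, dexamethasone, insulin, 500 µM IBMX and 125 µM indomethacin, were reverse transfected on day 4 with 250 ng plasmid and were harvested on day 7. Indomethacin inhibits the cyclooxygenases, and per the labels it was in the induction medium that was exchanged before the transfection, in every group alike. Cells received the empty sgRNA vector or pSgRNA-MS2-2+7, a pair of vectors against *Gm15551* (called sgRNA cells), and were left as control or stimulated for the last 24 h with isoproterenol (1 µM), which activates β-adrenergic receptors. The 4 groups held 4 libraries each, with the replicate numbers 3, 4, 5 and 6 in every group.

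Prostaglandins are local lipid signals made from arachidonic acid that phospholipases release from membranes. The cyclooxygenases, the constitutive form encoded by *Ptgs1* and the inducible form encoded by *Ptgs2*, turn it into prostaglandin H2, from which terminal synthases make the separate prostaglandins. *Ptges* encodes the inducible microsomal prostaglandin E synthase, *Ptgis* prostacyclin synthase and *Ptgds* the lipocalin-type prostaglandin D synthase. *Ptger1* to *Ptger4* encode the receptors EP1 to EP4 for prostaglandin E2, of which EP2 and EP4 raise cAMP, EP3 mostly lowers it and EP1 acts through calcium. *Hpgd* encodes the dehydrogenase that inactivates prostaglandin E2. In adipose tissue, *Ptgs2* and prostaglandin E2 are known for roles in the recruitment of thermogenic adipocytes and in the control of lipolysis.

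Estimated counts per library summed to between 9053521 and 16546187, and a single ribosomal RNA gene took between 11.7% and 51.8% of them. That share was lower in the sgRNA library than in the empty vector library of the same number and treatment in 8 of 8 pairs. With stimulation the share was higher in every empty vector pair, whereas the sgRNA pairs went both ways. Adipocyte markers were abundant, with a sum over 6 genes between 12095 and 26165 CPM (counts scaled to library size), and 8 of 9 markers of brown adipocytes had enough counts to be tested. Of these, *Elovl3* had a mean of 267 CPM, *Ppargc1a* of 51.9, *Ebf2* of 15.3, *Cidea* of 4.07, *Prdm16* of 1.14, *Cox8b* of 0.799 and *Cox7a1* of 0.792 CPM, and 4 of the 9 were under 1 CPM in the mean of each control group. *Ucp1* was at 0.350 ± 0.302 and 0.548 ± 0.316 CPM in empty vector and sgRNA control cells and at 6.42 ± 2.67 and 9.35 ± 4.25 CPM in the stimulated ones (SD, n = 4 each), and *Dio2* had 1 count in all libraries. Of 8 leukocyte markers, 6 were under 1 CPM in the mean of every group. Among these, *Ptprc* and *Adgre1* had 6 counts and 1 count over all libraries. By contrast, *Cd68* and *Cd14* of the same list had means of 14.1 and 3.57 CPM. The targeted gene *Gm15551* was above its empty vector partner in 8 of 8 pairs of libraries (averaged log2 fold change 2.37, SE 0.39, adjusted p = 0.0989, and 2.41, adjusted p = 0.000550 with the replicate block), at 0.952 ± 0.405 CPM in empty vector control, 2.97 ± 1.08 CPM in sgRNA control, 0.147 ± 0.199 CPM in stimulated empty vector and 1.56 ± 0.420 CPM in stimulated sgRNA cells (SD, n = 4 each). The label of the vectors points to the study's guides 2 and 7, which are shown because they define the sgRNA groups. Guide 2 lay at chr3:126669053-126669072 (GRCm38.p6) on the minus strand in the RefSeq promoter window of *Gm15551*, began 129 bases before the RefSeq start site and 28 before the GENCODE one, which differ, and was followed by the PAM TGG, and guide 7 was not placed here.
Gm15551-2: cacttccagttatataagcg
Gm15551-7: agggttttttgctaaaacgg

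Scaled for exon length, the cyclooxygenases and *Ptges* were the only members at a middle level. The mean over the 16 libraries was 7.77 CPM per kb of exon for *Ptgs1*, 5.80 for *Ptgs2* and 4.64 for *Ptges*, which placed them above 70.2%, 63.5% and 57.9% of the tested genes. *Ptger1* and *Ptgis* followed at 0.325 and 0.322 CPM per kb, above 7.82% and 7.72% of the tested genes. The other members were not tested for lack of counts. *Ptger4* had a total of 123 counts, *Ptgds* 28, *Ptger2* and *Ptger3* 3 each and *Hpgd* 2 over all 16 libraries. A count of 0 in a library allows a level of up to 0.166 to 0.390 CPM there, depending on its depth and for counting error only. *Ptgds*, *Ptger2*, *Ptger3* and *Hpgd* were thus near or under the limit of detection. *Ptger4* had a count in each of the 16 libraries, at a mean of 0.592 CPM (0.127 to 1.35 CPM). In bulk samples, fewer cells with a transcript and less of it per cell cannot be told apart.

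**Figure D1:**
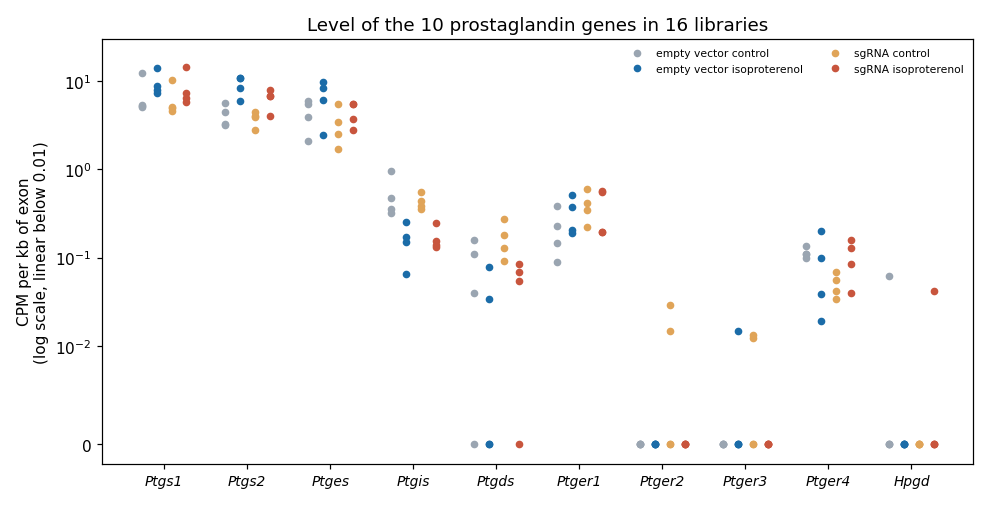
Level of each of the 10 genes in CPM per kb of exon (vertical axis, logarithmic above 0.01 and linear below), 1 point per library, coloured by the 4 groups. *Ptgs1*, *Ptgs2* and *Ptges* lie above every library of the receptors, and *Ptger2*, *Ptger3* and *Hpgd* are at 0 in most libraries.

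The sequence around the start sites of the 3 abundant members is shown from their RefSeq promoters (GRCm38.p6). Each is printed from 250 bases before the annotated start site onwards, 280 bases in all. RefSeq windows of 300 bases were found for 8 of the 10 members, and *Ptgis* and *Ptger1* had none in the table used. Each window was searched on both strands for TGACG, the half-site of the cAMP response element, for the full element TGACGTCA, for the E-box CACGTG, for the C/EBP-type palindrome TTGCGCAA and for TATAAA. The palindrome and the E-box were added after the sequence of *Ptgs2* had been seen. Capitals mark matches to TGACG, TTGCGCAA or CACGTG. *Ptgs2* is on chromosome 1 (chr1:150099781-150100060, plus strand), *Ptgs1* on chromosome 2 (chr2:36230176-36230455, plus strand) and *Ptges* also on chromosome 2 (chr2:30903268-30903547, minus strand). The start sites of *Ptgs1* and *Ptgs2* are those of the GENCODE gene models used here, whereas the RefSeq start of *Ptges* lies inside its longer GENCODE gene span and the 2 annotations differ there.
Ptgs2: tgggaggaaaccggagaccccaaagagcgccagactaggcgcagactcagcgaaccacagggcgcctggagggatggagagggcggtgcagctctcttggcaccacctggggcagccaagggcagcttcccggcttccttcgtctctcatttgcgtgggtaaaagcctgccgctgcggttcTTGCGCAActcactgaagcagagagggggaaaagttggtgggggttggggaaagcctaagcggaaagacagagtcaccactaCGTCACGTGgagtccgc
Ptgs1: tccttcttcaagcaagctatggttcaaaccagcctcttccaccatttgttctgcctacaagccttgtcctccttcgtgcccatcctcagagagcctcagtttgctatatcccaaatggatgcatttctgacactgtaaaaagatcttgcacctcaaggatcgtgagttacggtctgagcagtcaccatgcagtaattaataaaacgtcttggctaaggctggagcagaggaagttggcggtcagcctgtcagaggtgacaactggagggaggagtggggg
Ptges: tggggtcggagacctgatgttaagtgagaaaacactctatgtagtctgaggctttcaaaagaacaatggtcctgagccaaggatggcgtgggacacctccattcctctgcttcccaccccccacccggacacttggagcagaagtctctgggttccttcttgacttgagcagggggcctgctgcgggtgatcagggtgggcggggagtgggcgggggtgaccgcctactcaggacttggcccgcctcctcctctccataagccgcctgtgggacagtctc

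The *Ptgs2* window held 1 match to TTGCGCAA at bases 182 to 189 of the printed sequence, 1 to TGACG, read on the opposite strand as CGTCA, at bases 264 to 268, and 1 to CACGTG at bases 267 to 272, which shares its first letters with the half-site. No match to any of these 3 motifs was found in the windows of *Ptgs1*, *Ptges*, *Ptgds*, *Ptger2*, *Ptger3*, *Ptger4* or *Hpgd*, and *Hpgd* alone had TATAAA. Of 32851 mouse promoter windows of this length, 20.8% held TGACG, 7.15% CACGTG, 0.183% TTGCGCAA, 1.79% TGACGTCA and 13.6% TATAAA. Since TTGCGCAA and CACGTG were added after the *Ptgs2* sequence had been seen, their shares do not measure how unusual that window is. In *Ptgs2*, the match to TTGCGCAA lay before the annotated start site and those to TGACG and CACGTG after it. These matches describe letters in a window and not binding. In the same window, the annotated gene *Ptgs2os* begins on the opposite strand, with between 0 and 8 counts per library.

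Isoproterenol changed the expression of *Ptgs2* and *Ptgis*, in opposite directions. Averaged over both plasmids, 2 of the 5 tested members were called, which takes a Benjamini-Hochberg p under 0.05 in edgeR's quasi-likelihood test and a log2 fold change of more than 0.5 in either direction, beside 2.65% of all 13150 tested genes. With the replicate number as a block 3 were called, *Ptges* being the additional one, beside 5.7% of all genes. Within empty vector cells 1 member was called, beside 0.829% of genes, and with the block 3, beside 4.47%. Within sgRNA cells 0 were called, beside 0.7% of genes, and with the block 2, beside 3.9%. At an unadjusted p under 0.05 there were 2 members in each of these comparisons, beside 17.7%, 10.1% and 8.46% of all genes, and with the block 4 in each, beside 33.5%, 23.7% and 21.7%. DESeq2 without the block called 2, 1 and 0 members in these comparisons, beside 3.54%, 1.73% and 1.4% of genes. The median log2 fold change of the 5 tested members was 0.46 in the averaged comparison, against 0.00 over all genes tested. These comparisons share libraries with each other and with the sgRNA comparisons given further on.

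*Ptgs2*, the inducible cyclooxygenase (ENSMUSG00000032487, GRCm38 chr1:150100031-150108227), rose under stimulation. In empty vector control cells it was at 20.2, 15.0, 14.7 and 25.5 CPM in replicates 3, 4, 5 and 6, and in stimulated empty vector cells at 49.3, 38.2, 27.4 and 49.0 CPM. Every stimulated library lay above every control library. In sgRNA cells it was at 18.4, 17.7, 12.8 and 20.4 CPM in control and at 31.0, 30.6, 18.3 and 36.2 CPM in stimulated libraries, where replicate 5 of the stimulated libraries lay within the range of the control libraries. The group means were 18.9 ± 5.14, 41.0 ± 10.5, 17.3 ± 3.22 and 29.0 ± 7.56 CPM (SD, n = 4 each), in the order just given.

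The averaged log2 fold change of *Ptgs2* under isoproterenol was 0.93 (SE 0.17, adjusted p = 0.00387), a 1.91-fold increase, and *Ptgs2* was higher in the stimulated library in 8 of 8 pairs. It was 1.12 in empty vector cells (SE 0.24, adjusted p = 0.0330). This call without the block was kept in 11 of 20 fits that left out libraries. It was lost without replicate 3, 4 or 6 of all groups, without replicate 3, 4 or 5 of empty vector control and without replicate 3, 4 or 6 of stimulated empty vector cells (log2 fold change between 1.02 and 1.19, adjusted p between 0.0524 and 0.413). With the block it was kept in 4 of 4. In sgRNA cells it was 0.75 (SE 0.24), which was not called without the block (adjusted p = 0.255) and was called with it (0.73, SE 0.10, adjusted p = 0.000174). The difference between these responses, the interaction, was -0.38 in log2 units (SE 0.33, adjusted p = 1) and with the block -0.40 (SE 0.14, adjusted p = 1), with an unadjusted p of 0.0123 in the latter, so a smaller response in sgRNA cells was not shown. Without the block the averaged call was lost when all libraries of replicate 3 (adjusted p = 0.0862) or of replicate 4 (adjusted p = 0.0691) were left out, whereas with the block it was kept in each of the 4 fits that left out a replicate.

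*Ptgs1*, the constitutive cyclooxygenase (ENSMUSG00000047250, GRCm38 chr2:36230426-36252272), differed mainly between replicates. In empty vector control cells it was at 19.6, 20.1, 20.9 and 47.4 CPM in replicates 3, 4, 5 and 6, and in stimulated empty vector cells at 30.4, 28.6, 33.6 and 54.9 CPM. In sgRNA cells it was at 17.8, 19.0, 19.5 and 39.7 CPM in control and at 24.9, 22.6, 28.4 and 55.6 CPM in stimulated libraries. Replicate 6 was the highest in each group, and the groups overlapped. Its log2 difference under isoproterenol was 0.46 (SE 0.26, adjusted p = 0.388), and it was higher in the stimulated library in 8 of 8 pairs. With the block the difference was 0.47 (SE 0.06, adjusted p = 2.7e-05), which passed the adjusted p but lay under the bound of 0.5, so that *Ptgs1* was not called in either fit. Without replicate 6 it was 0.51 in both fits and was called (adjusted p = 0.00375 without and 0.000230 with the block). That was the 1 call among 20 fits without the block that left out libraries. Over these the difference ranged from 0.27 (without replicate 6 of stimulated sgRNA cells) to 0.66 (without replicate 6 of empty vector control).

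The high *Ptgs1* of replicate 6 went along with other transcripts. The summed level of 7 markers of preadipocytes and fibroblasts was 109, 126, 69.8 and 97.2 CPM in the 4 libraries of replicate 6 and between 17.1 and 70.0 CPM in the other 12. The adipocyte marker sum was between 12095 and 19458 CPM in replicate 6 and between 15677 and 26165 CPM in the others. In neither list was a gene at 0 in all libraries of a group, and 4 of the 7 preadipocyte markers and 6 of the 6 adipocyte markers were tested. The part of these differences in the level of *Ptgs1* was not tested.

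**Figure D2:**
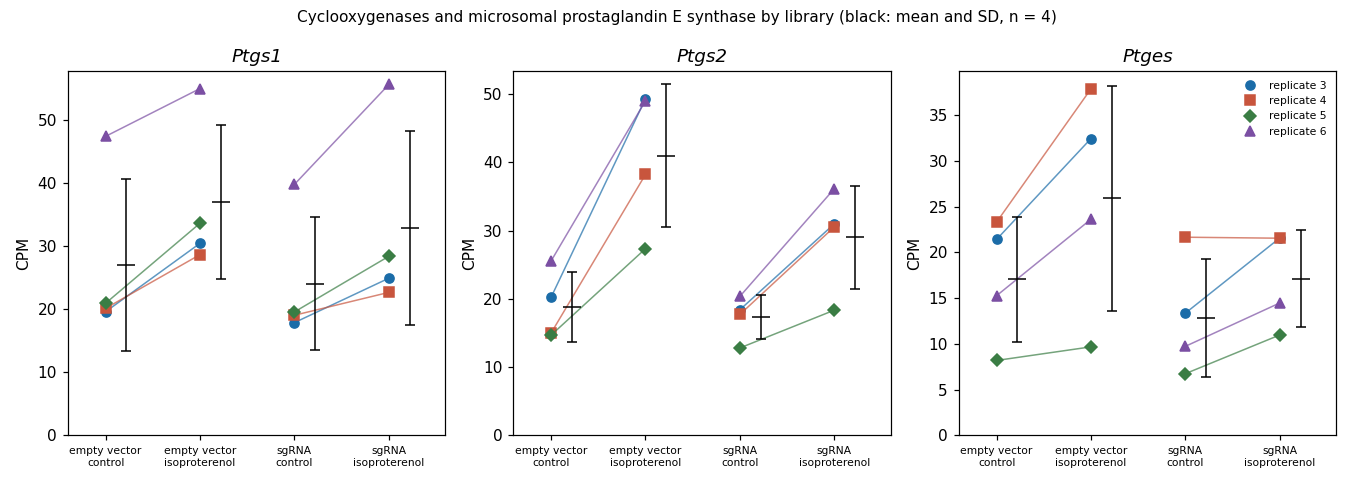
Expression of *Ptgs1*, *Ptgs2* and *Ptges* in CPM (vertical axes from 0) in the 4 groups, 1 symbol per library and replicate number, with lines that join control and stimulated libraries of a number and black bars for the mean and SD of 4. The lines of *Ptgs2* all go up, from 12.8 to 25.5 CPM in control to 18.3 to 49.3 CPM in stimulated libraries, and replicate 6 stands apart for *Ptgs1*.

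Per kb of exon, *Ptgs1* was above *Ptgs2* in all 8 control libraries, whereas stimulated libraries lay on both sides. *Ptgs2* made up 38.5% ± 6.31 of their sum in empty vector control, 48.7% ± 8.12 in stimulated empty vector, 39.2% ± 7.56 in sgRNA control and 43.9% ± 9.79 in stimulated sgRNA cells (SD, n = 4 each). The ranges of the groups overlapped, from 30.3% to 46.7% over the control and from 35.4% to 57.9% over the stimulated libraries. Within pairs of the same number the share was higher with stimulation in 4 of 4 empty vector and 3 of 4 sgRNA pairs, by between -0.291 and 14.4 percentage points.

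Of the terminal synthases, *Ptges*, which makes prostaglandin E2 (ENSMUSG00000050737, GRCm38 chr2:30889471-30929863), was at 21.4, 23.3, 8.18 and 15.3 CPM in the empty vector controls (replicates 3, 4, 5 and 6) and at 32.5, 37.9, 9.67 and 23.6 CPM in the stimulated ones. In sgRNA cells it was at 13.4, 21.7, 6.74 and 9.73 CPM in control and at 21.6, 21.6, 11.0 and 14.5 CPM in stimulated libraries. Replicate 5 was the lowest in each group, the groups overlapped, and 7 of 8 pairs were higher with stimulation. The averaged log2 difference under isoproterenol was 0.51 (SE 0.29, adjusted p = 0.401), not called. With the block it was 0.52 (SE 0.10, adjusted p = 0.00109), a 1.43-fold rise that was called. This call sits at the bound of 0.5, because without replicate 3 or replicate 6 the blocked value was 0.48 and 0.49. Within empty vector cells the blocked value was 0.58 (SE 0.13, adjusted p = 0.0116, called) and within sgRNA cells 0.46 (SE 0.14, adjusted p = 0.0501, not called). The call in empty vector cells was kept in 1 of 4 fits that left out a replicate, and without replicate 3, 4 or 6 the values were 0.59, 0.53 and 0.56 (adjusted p = 0.0571, 0.0687 and 0.0708). In sgRNA cells the value without replicate 4 was 0.66 (adjusted p = 0.0272) and called.

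*Ptgis*, prostacyclin synthase (ENSMUSG00000017969, GRCm38 chr2:167191805-167240604), fell under stimulation from an already low level. It had 20, 14, 19 and 8 counts in the empty vector controls (replicates 3, 4, 5 and 6) against 5, 8, 3 and 2 in the stimulated ones, and 16, 12, 19 and 13 counts in sgRNA control libraries against 4, 6, 5 and 9 in the stimulated ones. In CPM these were 1.36 ± 0.758 against 0.409 ± 0.196 and 1.11 ± 0.225 against 0.433 ± 0.138 (SD, n = 4 each). In CPM control and stimulated libraries did not overlap with either plasmid. The averaged log2 fold change was -1.52 (SE 0.30, adjusted p = 0.00821), and 8 of 8 pairs were lower with stimulation. Within empty vector cells it was -1.70 (SE 0.44, adjusted p = 0.0948) and called with the block only (-1.61, SE 0.41, adjusted p = 0.0201), and within sgRNA cells -1.34 (SE 0.42, adjusted p = 0.246) and again called with the block only (-1.30, SE 0.38, adjusted p = 0.0490). The averaged call without the block was lost when replicate 3, 4 or 5 was left out (adjusted p = 0.0814, 0.0699 and 0.0688). With the block, the averaged call was kept in each of 4 such fits and the calls within 1 plasmid in none.

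*Ptgds*, lipocalin-type prostaglandin D synthase (ENSMUSG00000015090, GRCm38 chr2:25466709-25470046), had between 0 and 6 counts per library, with totals of 6 in empty vector control, 2 in stimulated empty vector, 15 in sgRNA control and 5 in stimulated sgRNA cells. It was under the count minimum and was not tested. In CPM the sgRNA control libraries (0.152 to 0.456) lay above the stimulated libraries of sgRNA cells (0 to 0.141) and of empty vector cells (0 to 0.129), and the empty vector control libraries (0 to 0.260) overlapped with all of these groups. However, the 0 in replicate 5 allows up to 0.240 CPM in stimulated sgRNA and 0.382 CPM in stimulated empty vector cells. An order of these groups was therefore not established at this depth.

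**Figure D3:**
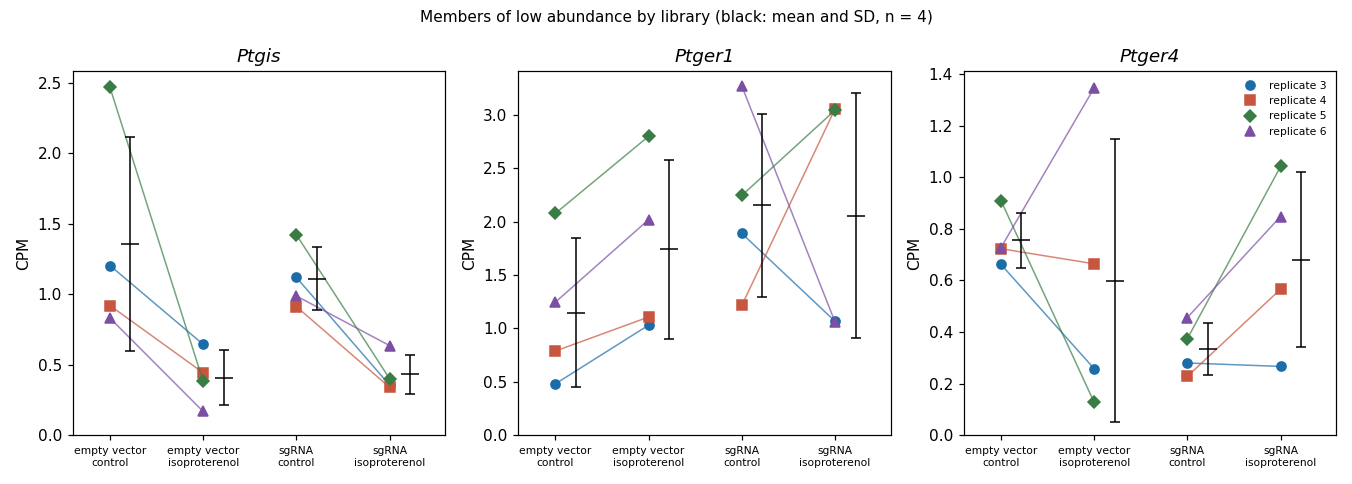
Expression of *Ptgis*, *Ptger1* and *Ptger4* in CPM (vertical axes from 0) in the 4 groups, 1 symbol per library and replicate number, with lines that join control and stimulated libraries of a number and black bars for the mean and SD of 4. All 8 lines of *Ptgis* go down, while those of *Ptger1* and *Ptger4* go both ways.

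Among the receptors for prostaglandin E2 only *Ptger1* was tested (ENSMUSG00000019464, GRCm38 chr8:83666678-83672753). The use of strand in the counting is not given in the sources used here, and its counts are uncertain for that reason. Counts of *Ptger1* were 8, 12, 16 and 12 in empty vector control, 8, 20, 22 and 24 in stimulated empty vector, 27, 16, 30 and 43 in sgRNA control and 12, 54, 38 and 15 in stimulated sgRNA libraries of replicates 3, 4, 5 and 6. The groups overlapped and the highest values, 3.27 and 3.06 CPM, were both from sgRNA cells. The averaged difference under isoproterenol was 0.30 in log2 units (SE 0.35, adjusted p = 0.739), and with libraries left out it ranged from 0.091 to 0.53. It was 0.65 (SE 0.52) within empty vector cells and -0.06 (SE 0.48) within sgRNA cells, not called in either.

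The cAMP-raising receptor *Ptger4* (ENSMUSG00000039942, GRCm38 chr15:5206661-5244187) had 11, 11, 7 and 7 counts in empty vector control, 2, 12, 1 and 16 in stimulated empty vector, 4, 3, 5 and 6 in sgRNA control and 3, 10, 13 and 12 in stimulated sgRNA libraries. In CPM, the empty vector control libraries (0.662 to 0.909) lay above the sgRNA control libraries (0.228 to 0.456), while the stimulated libraries of both plasmids overlapped. It was under the count minimum of the main analysis, and without that minimum the sgRNA effect in control cells was -1.11 on the log2 scale (SE 0.60, adjusted p = 1). *Ptger2* (ENSMUSG00000037759, GRCm38 chr14:44988195-45003820), the other receptor coupled to cAMP, had 3 counts, from 2 sgRNA control libraries, and was at 0 in the other 14. *Ptger3* (ENSMUSG00000040016, GRCm38 chr3:157566892-157645888) had 1 count in each of 3 libraries. The degrading enzyme gene *Hpgd* (ENSMUSG00000031613, GRCm38 chr8:56294585-56321043) had 1 count in an empty vector control and 1 in a stimulated sgRNA library, both of replicate 6. Since the use of strand is not given, reads in exon bases shared with an opposite-strand gene cannot be assigned with certainty. *Ptger4* shares 82 such bases with *Ttc33*, which had a mean of 15.0 CPM. *Ptgis* shares 156 (6.1%) with *1110018N20Rik*, which had 1 count over all 16 libraries. No order of *Ptger2*, *Ptger3* and *Hpgd* between groups was detectable at this depth.

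The sgRNA vectors gave no called member. Without the block edgeR called 0 members and 0% of all genes for the sgRNA effect averaged over both treatments, within control cells, within stimulated cells and for the interaction. At an unadjusted p under 0.05 it counted 0, 0, 1 and 0 members, beside 3.32%, 1.48%, 1.49% and 0.395% of all genes, and with the block 4, 2, 3 and 1 of the 5 members, beside 11.5%, 5.73%, 7.29% and 1.51%. DESeq2 without the block called 0 members in each, beside 0.0761%, 0.0228%, 0.0304% and 0% of the genes it gave an adjusted p. With the block the shares of all genes called were 0.266%, 0.0304%, 0.122% and 0%, and again 0 members were called. All 3 abundant enzymes were lower on average in sgRNA cells. *Ptgs2* was lower in the sgRNA library in 7 of 8 pairs, with an averaged difference of -0.31 (SE 0.17, adjusted p = 1) and, with the block, -0.30 (SE 0.07, adjusted p = 0.0806). Within stimulated cells it was lower in 4 of 4 pairs (with the block -0.49, SE 0.09, adjusted p = 0.0620), from 41.0 to 29.0 CPM in the mean.

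For *Ptges*, the averaged sgRNA difference was -0.51 (SE 0.29, adjusted p = 1), and it was lower in the sgRNA library in 7 of 8 pairs. With the block it was -0.48 (SE 0.10, adjusted p = 0.0345), which passed the adjusted p but lay under the bound of 0.5, and without replicate 5 it was -0.57 (adjusted p = 0.0135) and called. The ribosomal RNA share, which was also lower in sgRNA libraries, was entered beside the block, and *Ptges* was then at -0.54 (SE 0.14, adjusted p = 0.393) and *Ptgs2* at -0.23 (SE 0.10, adjusted p = 1). *Ptgs1* differed by -0.16 (SE 0.26, adjusted p = 1) and was lower in 7 of 8 pairs. *Ptgis* differed by -0.07 (SE 0.31, adjusted p = 1), and its sign was not stable, being 0.42 with the block and the ribosomal RNA share. The preadipocyte and fibroblast sum was also lower in the sgRNA library in 8 of 8 pairs. Of its 4 tested genes 3 were lower and 1 was higher (median -0.29). *Ly6a*, its most abundant gene, was called lower with the block (-0.74, SE 0.11, adjusted p = 0.00491). *Cidea* of the brown adipocyte list was called higher with the block (1.05, SE 0.21, adjusted p = 0.0348). The part of these markers in the lower enzymes was not tested.

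Of the 5 tested members, *Ptger1* had the largest positive averaged sgRNA difference, 0.62 on the log2 scale (SE 0.35, adjusted p = 1), with the sgRNA library above the empty vector one in 7 of 8 pairs. Within control cells it was 0.98 (SE 0.51, adjusted p = 1), with 1.15 ± 0.695 CPM in empty vector and 2.15 ± 0.856 CPM in sgRNA cells (SD, n = 4 each). Within stimulated cells the difference was 0.27 (SE 0.49). With libraries left out it ranged from -0.17 (without replicate 4) to 0.59 (without replicate 6). An adjusted p above the threshold does not show that sgRNA and empty vector cells were alike.

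**Figure D4:**
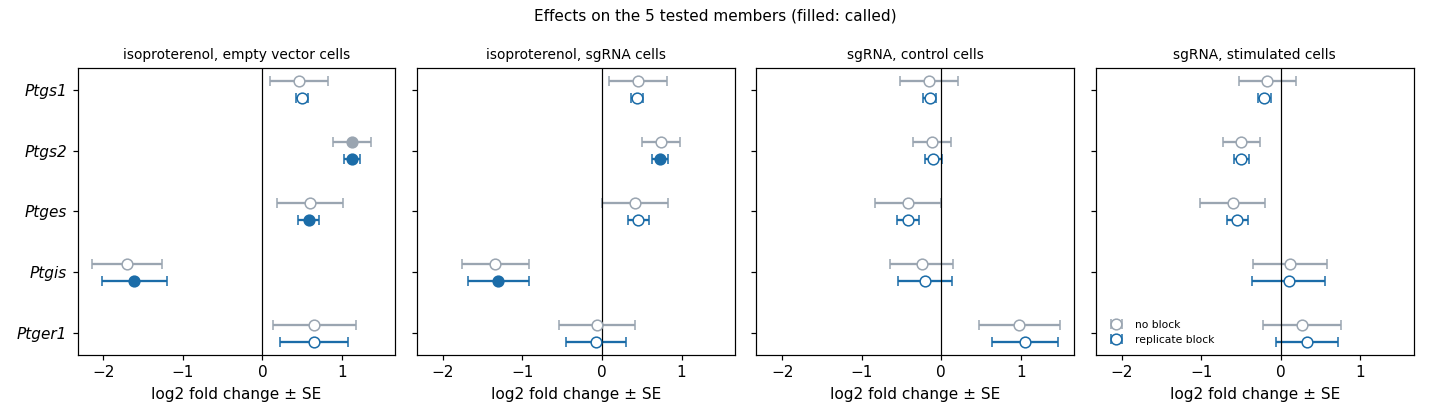
Log2 fold change with SE (horizontal axes) of the 5 tested members for isoproterenol in each plasmid and for the sgRNA vectors in each treatment, from the fit without (grey) and with (blue) the replicate block, with filled symbols for called values. *Ptgs2* is filled in both fits at 1.12 and 1.13 in empty vector cells, and no symbol is filled in the sgRNA panels.

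The share of the variation that went with the replicate number differed between the members. Of the sum of squares of log2 CPM over the 16 libraries, the replicate number held 75.7% for *Ptgs1* and 69.6% for *Ptges*, against a median of 46.8% over all genes tested, and 39.2% for *Ptger1*, 26.9% for *Ptgs2* and 8.01% for *Ptgis*. Isoproterenol held 60.2% for *Ptgs2* and 70.1% for *Ptgis*, 19.4% for *Ptgs1*, 13.6% for *Ptges* and 2.49% for *Ptger1*, against a median of 6.79%. The sgRNA vectors held 14.8% for *Ptger1*, 10.6% for *Ptges*, 6.55% for *Ptgs2*, 2.71% for *Ptgs1* and 0.030% for *Ptgis*, against a median of 2.38%. Replicate number had more degrees of freedom than isoproterenol or sgRNA, so its share is larger even without any effect. The replicates that were high differed between genes, with *Ptgs1* highest in replicate 6 (a mean of 49.4 CPM against 22.6 to 25.6 CPM in the others) and *Ptges* highest in replicate 4 and lowest in replicate 5 (26.1 and 8.89 CPM).

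**Figure D5:**
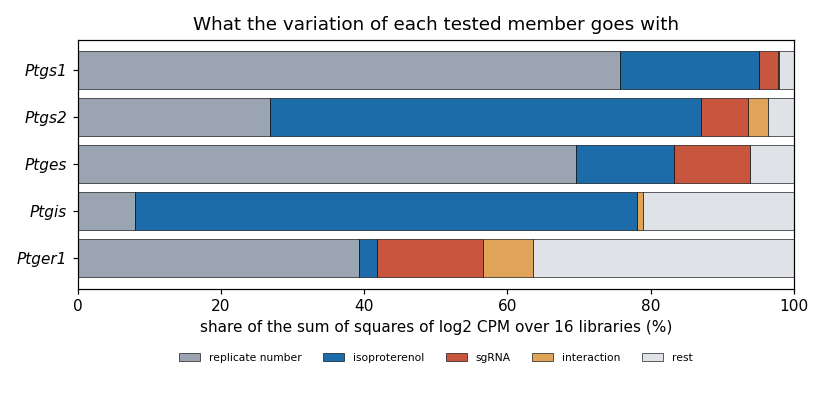
Share of the sum of squares of log2 CPM over 16 libraries (horizontal axis, %) that went with replicate number, isoproterenol, the sgRNA vectors, their interaction and the rest, 1 stacked bar per tested member. Isoproterenol takes the largest part for *Ptgs2* and *Ptgis* (60.2% and 70.1%), and replicate number for *Ptgs1* and *Ptges* (75.7% and 69.6%).

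The genes whose pattern over the 16 libraries was most like that of each abundant member differed accordingly. For *Ptgs2* they were *Sema3c* (Pearson's r = 0.94), *Vmp1* (0.93), *Il6*, *Fstl1* and *Gprc5a* (0.92 each) among 12109 genes with a mean of at least 1 CPM. For *Ptgs1* they were *Fbln2* and *Pak3* (0.98 each), *Rai14*, *Slc6a12* and *Notch3* (0.97 each), and for *Ptges* *Arhgdib* (0.96), *Pold4* (0.95), *Sec23b* (0.94), *Efemp1* (0.93) and *Mr1* (0.92). These correlations describe libraries that share groups, replicates and depth. Between members, r was 0.64 for *Ptgs1* and *Ptgs2*, 0.63 for *Ptgs2* and *Ptges*, 0.04 for *Ptgs1* and *Ptges* and -0.73 for *Ptgs2* and *Ptgis*.

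Cell type markers moved with stimulation too. The sum of 8 leukocyte markers was between 10.8 and 17.6 CPM in empty vector control and between 19.5 and 28.1 CPM in stimulated empty vector cells, and between 9.06 and 16.2 against 17.5 and 26.7 CPM in sgRNA cells. Only *Cd68* and *Cd14* of this list were tested, with log2 fold changes of 0.91 (SE 0.17, adjusted p = 0.00518) and 0.82 (SE 0.15, adjusted p = 0.00384), and the other 6 were each under 1 CPM in the mean of every group. The preadipocyte and fibroblast sum was between 24.9 and 109 against 32.7 and 126 CPM in empty vector cells and between 17.1 and 69.8 against 23.9 and 97.2 CPM in sgRNA cells. This sum was higher with stimulation in 8 of 8 pairs, and 4 of its 7 genes were tested. Of these, 3 had a positive and 1 a negative averaged difference (median 0.19). *Ly6a*, the most abundant of the 7 at a mean of 30.2 CPM, was called higher with the block only (1.09, SE 0.11, adjusted p = 4.92e-06). The adipocyte sum was between 15862 and 26165 against 12095 and 21598 CPM in empty vector cells and between 19458 and 24693 against 13021 and 23171 CPM in sgRNA cells, lower with stimulation in 8 of 8 pairs. All 6 adipocyte markers had a negative averaged difference (median -0.44), and of these *Adipoq* (-1.06, SE 0.18, adjusted p = 0.00222) and *Cidec* (-0.54, SE 0.13, adjusted p = 0.0299) fell, with *Plin1* called in addition with the block. The sum of 9 brown adipocyte markers was between 214 and 423 against 261 and 471 CPM in empty vector cells and between 243 and 446 against 344 and 586 CPM in sgRNA cells. Of their 8 tested genes 5 had a positive and 3 a negative averaged difference (median 0.37). *Ucp1* (4.03, SE 0.37, adjusted p = 7.36e-06) and *Ppargc1a* (0.71, SE 0.15, adjusted p = 0.0128) rose, with *Cidea* called higher in addition with the block. Within empty vector cells 1 of the 8 was called lower with the block. The smooth muscle sum of 3 genes was between 4.07 and 29.6 against 2.93 and 16.9 CPM in empty vector cells and between 3.35 and 28.8 against 3.11 and 17.4 CPM in sgRNA cells, and *Acta2* and *Myh11*, the 2 tested, were called lower with the block only (-0.50, adjusted p = 0.0137, and -0.75, adjusted p = 0.0417). The part of any of these in the changes of *Ptgs2*, *Ptges* and *Ptgis* was not tested.

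The rest of the pathway was described from a list of 38 further genes in the table, of which 19 were tested. Under isoproterenol 13 had a positive and 6 a negative averaged log2 difference, with a median of 0.18 against 0.00 over all genes tested. Without the block 1 was called, beside 2.65% of all genes tested. This was *Plaat3*, a phospholipase abundant in fat cells, which fell by 1.07 (log2, SE 0.12, adjusted p = 7.44e-05) and was lower in 8 of 8 pairs. With the block *Ptgir*, the prostacyclin receptor (0.95, SE 0.29, adjusted p = 0.0280), and *Slco2a1*, a prostaglandin transporter (0.81, SE 0.27, adjusted p = 0.0434), were also called, both higher, which made 3 of 19 beside 5.7% of all genes. *Plaat3* was the most abundant gene of substrate release at 28.8 CPM per kb of exon, *Ptges3* of the other synthases at 56.7, *Ptgr2* of transport and breakdown at 12.1, *Ptgfrn* of the class of other receptors at 1.55 and *Ltc4s* of the lipoxygenase branch at 38.3. *Ptgfrn* encodes a negative regulator of the prostaglandin F receptor and no receptor itself, and *Ptgir* followed in that class at 0.290. *Ptges3*, the cytosolic prostaglandin E synthase and co-chaperone, was thus above the inducible *Ptges*, and its difference under isoproterenol was 0.14 (SE 0.06, adjusted p = 0.287). For the averaged sgRNA effect 7 of the 19 were higher and 12 lower, and none was called in either fit.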

How the data were processed

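Polyadenylated RNA of 16 cultures was sequenced in paired ends with a NEBNext Ultra II RNA kit. Per the labels and the study's methods, the authors trimmed with cutadapt, quantified with Salmon on the GENCODE M22 transcriptome (GRCm38), alone or together with RNAcentral, and deposited estimated counts per gene, not normalised, as whole numbers. Tool versions, which of these transcriptomes this table used and the use of strand are not given in the sources used here. Salmon divides reads that fit several transcripts.

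Groups and replicate numbers came from the sample titles. The counts were tested in R 4.3.3 with edgeR 4.0.16: filterByExpr (minimum count 10, total 15), TMM scaling, 4 group means in 1 model, glmQLFit and glmQLFTest, two-sided, Benjamini-Hochberg adjustment over 13150 genes. For a call the adjusted p had to be under 0.05 and the log2 fold change beyond 0.5 in either direction. CPM are counts scaled to the TMM-normalised library size, log2 CPM used a prior count of 2, and levels between genes used the union of exons in GENCODE M21. SE is the size of the log2 fold change divided by the root of F. Promoters came from RefSeq.

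Replicate numbers were taken to pair the libraries, because the deviations from the group means of libraries with the same number correlated in all 24 pairs (r between 0.22 and 0.61, against a median of -0.21 for different numbers and groups). The median biological coefficient of variation was 18.0% without and 9.96% with the block. The labels do not say whether replicates were separate experiments, so p-values measure the spread between these samples. Alternatives were the block, DESeq2 1.42.0, its size factors, no count minimum, the ribosomal RNA gene left out, its share as a term, the adjusted p alone and leaving out replicates or libraries. The procedure was tested on simulated data drawn without a replicate effect. That test therefore cannot decide between the fits with and without the block.

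Named genes were all 10 members, pathway genes called in either fit, the most abundant gene of each pathway class and the 5 genes most like each abundant member. Members and lists were chosen with earlier results of these data known.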

Additional observations from a re-analysis of the deposited data

Results flagged for a closer look

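*Ptgs1* in replicate 6 stood apart from the other libraries of its group among control cells of both plasmids, at 47.4 CPM in empty vector and at 39.7 CPM in sgRNA cells. The gap to the next library was 0.952 and 0.923 of the range of the group, above the critical value of Dixon's test for 4 samples. Of 20 groups examined (5 tested genes in 4 groups) these 2 were found, and chance alone gives about 1 in 20 independent groups. Both were the same gene in the same replicate number, so they do not count as independent. In stimulated cells replicate 6 was also the highest, with 54.9 and 55.6 CPM, without passing that value.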

How the results depend on the processing

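Of the averaged isoproterenol and averaged sgRNA effects on the 5 tested members under the alternatives, 278 values kept their direction and their side of the threshold, 7 lost and 5 gained a call and 10 changed sign. With the replicate block, and with the block and the ribosomal RNA share, 3 members were called for isoproterenol in empty vector cells (1 without) and 2 in sgRNA cells (0 without). The block also gave the averaged *Ptges* call (0.52, and 0.54 with the ribosomal RNA share) and changed no other averaged call. Leaving out libraries gave between 0 and 3 called members for averaged isoproterenol and between 0 and 1 in empty vector cells. With the block these were between 1 and 2 in empty vector cells, between 1 and 2 in sgRNA cells and between 0 and 1 for the averaged sgRNA effect, the 1 being *Ptges* without replicate 5. The uncalled sgRNA effect on *Ptgis* ranged from -0.37 to 0.14 with libraries left out, from -0.37 to 0.087 with the block as well, and was 0.42 with the block and the ribosomal RNA share. That on *Ptgs1* ranged from -0.35 to 0.042, the latter without replicate 6 of empty vector control. The causes were not tested. With 2 to 54 counts per library, depth limits what can be said of *Ptgis* and *Ptger1*.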
